A study of Homo sapiens with 18 samples.

Results

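The genes described here are the cytosolic heat shock proteins and the DNAJ co-chaperones, together with the mitochondrial chaperonins and the regulator HSF1, in human osteosarcoma cells grown as tumors. They were chosen by symbol: genes beginning DNAJA, DNAJB, DNAJC, HSPA, HSPB, HSPH or HSP90A, plus HSPD1, HSPE1 and HSF1, without HSPA5, DNAJB9, DNAJB11, DNAJC3, HSPBAP1, HSPBP1 and pseudogenes. The rule found 68 of the 19775 genes with a probe set annotated to them alone, 63 of them protein-coding and 5 noncoding. Of the 63 coding members, 57 passed a filter on dim signals (3 or more arrays at 5.36 on the log2 scale, the table's median) and were tested among 14418 genes. HSPA1A, HSPA1B and HSPA8, the best known HSP70 genes, were covered by 7 probe sets that also match other genes, so no value is given for them. The inducible HSP70 pair and the main constitutive HSP70 are therefore missing from every count below.

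The samples were 18 Affymetrix 3' expression arrays in 5 groups. MNNG/HOS and 143B are established osteosarcoma lines, here carrying the green fluorescent protein ZsGreen and grown as orthotopic bone tumors in host animals that the labels do not describe. PKH26 is a membrane dye that dividing cells dilute. Tumor cells sorted as PKH26-high, which the labels call tumor-initiating, formed MNNG_High (4 arrays) and 143B_High (3 arrays, of which a pair each pooled 2 tumors). PKH26-low bulk tumor cells formed MNNG_Low (4 arrays) and 143B_Low (5 arrays). MNNG_Lung (2 arrays) came from lung metastases of MNNG/HOS transplants, 1 labelled with tumor number 1233 and 1 labelled a mix. The labels do not state whether the lung cells were sorted by dye. Each line stands for itself, so a line comparison says nothing of osteosarcoma at large. Tumors carry separate numbers, and p-values measure the spread between these arrays.

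Chaperones bind unfolded or partly folded proteins. HSP70 proteins do so in cycles of ATP hydrolysis that J-domain (DNAJ) proteins start and that nucleotide exchange factors, including the HSP110 proteins, reset, and clients may then pass to HSP90 or to a chaperonin. Small heat shock proteins hold clients without ATP. HSF1 is the transcription factor that raises the inducible members under heat and other proteotoxic stress, by binding heat shock elements, arrays of inverted GAA units. Tumor cells are known to lean on these proteins, and tissue dissociation is itself a known inducer of the response.

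Some members carry such an element close to their start. The search took 3 units of GAA and its reverse complement TTC, alternating, with any 2 bases between neighbours, in either order, which covers both strands. In RefSeq windows of GRCh38.p14 that run from 250 bases before to 50 bases after the transcription start, 6 of 55 coding members with a window held it (10.9%), against 85 of 15843 protein-coding genes (0.537%). The shorter forms GAANNTTC and TTCNNGAA, which lie within the longer ones, were held by 19 of the 55 (34.5%) and by 14.9% of all. These counts describe letters in a window, and binding was not measured. The 5 members with an element upstream of the start are shown because they include HSP90 genes, the stress-inducible HSPA6, the chaperonin HSPD1 and DNAJB6, whose signal differed between groups below. A sixth, DNAJA1, held its match within the transcribed part of the window and is not printed. Capitals mark the bases of the elements, and each stretch reads 5′ to 3′ on the strand of the gene.
HSPA6 (chr1:161524446-161524498, plus strand): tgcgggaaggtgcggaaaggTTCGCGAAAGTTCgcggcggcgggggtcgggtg
HSP90AA1 (chr14:102087100-102087152, minus strand): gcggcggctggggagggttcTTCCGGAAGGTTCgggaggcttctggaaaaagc
HSP90AB1 (chr6:44247758-44247863, plus strand): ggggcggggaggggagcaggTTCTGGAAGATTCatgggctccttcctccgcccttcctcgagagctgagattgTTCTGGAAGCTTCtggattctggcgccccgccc
HSPD1 (chr2:197500048-197500090, minus strand): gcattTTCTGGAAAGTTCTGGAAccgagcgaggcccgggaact
DNAJB6 (chr7:157336853-157336905, plus strand): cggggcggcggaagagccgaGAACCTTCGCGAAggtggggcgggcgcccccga
HSP90AB1 holds 2 separate elements, HSPD1 a run in which 2 elements overlap, and the other 3 stretches 1 element each. In HSPA6 the element lies 74 to 62 bases before the start, and in HSP90AA1 88 to 76 bases before it.

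The arrays were not alike in all respects, and the lung arrays stood apart. Values are log2 RMA signals throughout. The interquartile ranges of the lung arrays over all probe sets were 2.09 and 2.28, compared with 2.76 to 3.18 for MNNG_High and 3.26 to 3.48 for the rest. The control probes for ACTB gave a 3' minus 5' difference of -2.97 and -2.16 on the lung arrays, against 0.75 to 2.82 on all bone tumor arrays. Those for GAPDH did not set the lung arrays apart, with 0.45 and 0.94, against 0.34 to 1.04 on the bone tumor arrays. The GAPDH difference was 0.50 to 0.75 on MNNG_High and 0.34 to 0.41 on MNNG_Low, without overlap. Since the spread of the lung arrays enters the shared limma fit, counts for bone tumor groups are also given without them. Of the osteoblast lineage genes, RUNX2, COL1A1 and SPARC were bright in both lines, while the group means of ALPL and IBSP lay under 5.36 in all 4 bone tumor groups. Sample descriptions end in 1 of 3 date tags, whose meaning is not stated: all 143B arrays share 1, and 3 of the 4 MNNG_Low arrays carry another than the MNNG_High and lung arrays. Line and tag cannot be told apart.

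Most stress-linked members differed little between dye-retaining and bulk cells of either line. Of 12 genes listed as heat inducible, 9 had a probe set of their own (HSPA6, HSPA4L, HSPH1, HSP90AA1, HSPB1, DNAJA1, DNAJB1, HSPD1 and HSPE1). Limma called 0 of the 9 at an adjusted p of 0.05 in MNNG_High against MNNG_Low and 0 in 143B_High against 143B_Low, and 0 in either had an unadjusted p under 0.05. Of all genes, 10.6% were called higher and 15.5% lower in MNNG, and 0.00694% higher and 0% lower in 143B. In MNNG all 9 estimates were below 0, with a median of -0.16, beside -0.19 for all genes. With the tumor as a replicate block, 2 of the 9 were called lower in MNNG_High, HSPE1 (-0.37 ± 0.11, adjusted p = 0.0183) and HSPA4L (-0.61 ± 0.20, adjusted p = 0.0235), in a fit that called 52.9% of all genes. HSPA4L, an HSP110 gene, had 5.92, 7.35, 5.55 and 7.92 in MNNG_High, against 6.70, 7.51, 7.04 and 7.94 in MNNG_Low. The groups overlapped, while all 4 tumors had the lower value in High cells, by 0.02 to 1.49. HSP90AA1, the inducible cytosolic HSP90, had 13.90, 14.11, 13.66 and 14.11 in MNNG_High, against 13.95, 14.08, 14.07 and 14.06 in MNNG_Low. The groups overlapped, and the difference was -0.09 ± 0.18 (SE; limma adjusted p = 0.695). HSPH1, the inducible HSP110, had 11.72, 12.25, 11.71 and 12.32 in MNNG_High, against 11.97, 12.28, 12.19 and 12.18 in MNNG_Low, again overlapping. DNAJB1, a heat-inducible J-domain partner of HSP70, averaged 12.15 ± 0.28 in MNNG_High and 12.21 ± 0.18 in MNNG_Low (SD, n = 4 each). In 143B_High it averaged 12.33 ± 0.11 and in 143B_Low 12.02 ± 0.25 (n = 3 and 5), and the groups overlapped. With the tumor block its 143B difference was 0.30 ± 0.11 (SE; limma adjusted p = 0.345), not called.

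Apart from HSPE1 and HSPA9, the other abundant chaperones were as close. HSP90AB1, the constitutive HSP90, averaged 12.92 ± 0.15 in MNNG_High and 13.06 ± 0.06 in MNNG_Low (SD, n = 4 each). HSPD1, the mitochondrial chaperonin, had 13.46, 13.61, 13.11 and 13.73 in MNNG_High, against 13.63, 13.66, 13.61 and 13.69 in MNNG_Low, and 13.72 to 13.85 on the 8 143B arrays. HSPE1, its co-chaperonin, had 11.40, 11.57, 11.30 and 11.80 in MNNG_High, against 11.86, 11.95, 11.75 and 11.99 in MNNG_Low. These HSPE1 values overlapped by a single array (-0.37 ± 0.35, adjusted p = 0.411), and all 4 tumors had the lower value in High cells. HSPE1 was called lower with the tumor block and, at an adjusted p of 0.0317, without the lung arrays. HSPA9, the mitochondrial HSP70, had 11.67, 11.61, 11.32 and 11.86 in MNNG_High, against 12.14, 11.82, 12.07 and 11.95 in MNNG_Low. The HSPA9 groups overlapped, and all 4 tumors had the lower value in High cells. It was called lower with the tumor block (-0.38 ± 0.12, limma adjusted p = 0.0242). DNAJA1, a cytosolic J-domain partner of HSP70, had 12.06, 12.47, 12.32 and 12.68 in MNNG_High, against 12.31, 12.47, 12.64 and 12.63 in MNNG_Low. HSPA4, a constitutive HSP110, differed by -0.25 ± 0.16 in MNNG and by 0.02 ± 0.17 in 143B, and HSPB1, the abundant small heat shock protein, by -0.18 ± 0.25 and 0.11 ± 0.26.

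HSPA6, an HSP70 gene with little expression in unstressed human cells, was bright on every bone tumor array. It had 11.94, 12.77, 12.25 and 12.03 in MNNG_High, against 12.24, 12.89, 12.15 and 12.28 in MNNG_Low. It had 12.32, 11.43 and 11.94 in 143B_High, against 10.48, 11.03, 11.78, 11.59 and 11.36 in 143B_Low. The values of High and Low overlapped in each line (-0.14 ± 0.46 and 0.65 ± 0.47, adjusted p = 0.817 and 0.999). The fit with the tumor as a replicate block left out the lung arrays and had smaller standard errors. It gave -0.14 ± 0.11 in MNNG and 0.56 ± 0.12 in 143B (limma adjusted p = 0.288 and 0.1), called in neither. Immediate early genes such as FOS and EGR1, which respond to stress within minutes, were bright on the same arrays. The mean of 10 of them was 11.17 to 11.58 in MNNG_High and 11.01 to 11.50 in MNNG_Low. In 143B_High it was 11.07 to 11.28, while 143B_Low had 10.56 to 11.04. The part of dissociation and sorting in either level was not tested. HSPA6 has a near-identical pseudogene, so how far its probe set is specific is uncertain.

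**Figure D1:**
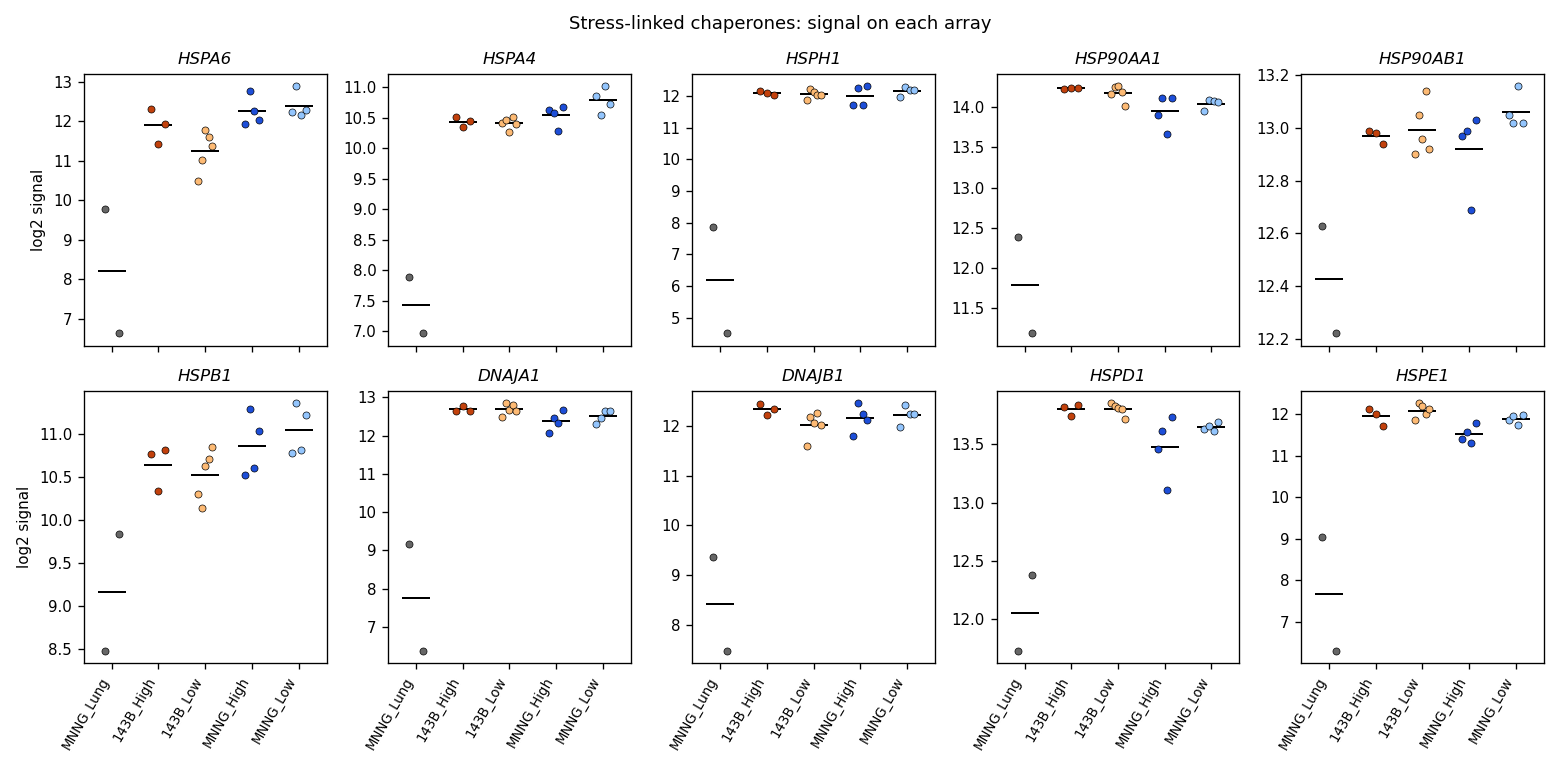
Log2 signal (y axes, each panel with its own range) of 10 stress-linked chaperones on every array, by group on the x axis; points are arrays and lines are group means. The bone tumor groups lie close together, with HSPA6 at 10.48 to 12.89, while both lung arrays lie below every bone tumor array for all 10 genes.

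In MNNG tumors, members called between dye-retaining and bulk cells were mostly DNAJC genes at lower signal. In MNNG_High against MNNG_Low, 4 of 57 members rose (7.02%) and 8 fell (14.0%), where 10.6% of all genes were higher and 15.5% lower. The members' median difference was -0.24, against -0.19 for all genes tested, so neither the counts nor the median set the members apart. Of the 24 DNAJC genes tested, 7 fell and 0 rose. DNAJC27, a J-domain protein with a Rab-like GTPase domain, had 5.41, 5.76, 5.54 and 5.64 in MNNG_High, against 6.21, 6.15, 6.24 and 6.35 in MNNG_Low. The groups did not overlap (-0.65 ± 0.11, adjusted p = 0.00355), and all 4 tumors had the lower value in High cells. DNAJC16 (-0.62 ± 0.13) and DNAJC13, an endosomal J-domain protein (-0.59 ± 0.14), fell likewise, as did DNAJC10, a disulfide reductase of the endoplasmic reticulum (-0.54 ± 0.18). DNAJC9, which handles histones H3 and H4, fell by 0.40 ± 0.14, and DNAJC8, a spliceosome-associated protein, fell by 0.39 ± 0.11. DNAJC6, the neuronal auxilin that uncoats clathrin vesicles, fell by 0.84 ± 0.29, with overlapping groups. For DNAJC16, 1 of 3 probe sets above the filter ran the other way, at 0.37, and for DNAJC13 the mean over probe sets gave 0.

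DNAJB6, which keeps aggregation-prone proteins soluble and carries the element printed above, had 8.88, 9.11, 9.36 and 9.29 in MNNG_High, against 9.72, 9.54, 10.05 and 9.52 in MNNG_Low. All 4 High values lay below the lowest Low value (-0.55 ± 0.20, adjusted p = 0.0486). The 4 members that rose were dim. HSPB2, a small heat shock protein of muscle, had 6.73, 5.91, 6.15 and 5.86 in MNNG_High, against 5.63, 5.20, 5.42 and 5.34 in MNNG_Low (0.77 ± 0.17, adjusted p = 0.00839). DNAJB13, a sperm and cilium J-domain protein, rose by 0.71 ± 0.18, HSPB7, of heart and muscle, by 0.61 ± 0.19, and HSPA12B, a distant HSP70 of endothelium, by 0.56 ± 0.17. HSPB7 and HSPA12B passed the filter only on MNNG_High and lung arrays, the groups where they were high, so a difference in that direction was built into their passing. CRYAB, the small heat shock gene that lies beside HSPB2, also rose (0.73 ± 0.22).

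Markers of other cells moved with these dim members. Of 6 macrophage markers tested, 4 rose in MNNG_High, and the mean of all 9 measured was 5.86 to 6.28 in MNNG_High, against 5.16 to 5.34 in MNNG_Low. The macrophage genes CD163 and TYROBP had means of 4.65 and 4.67 in MNNG_High, under the filter. Of 4 skeletal muscle markers tested, 3 rose (DES by 0.69 ± 0.13, ACTN3 by 0.60 ± 0.15 and ACTA1 by 0.59 ± 0.17), and the mean of 9 was 4.91 to 5.29 in MNNG_High, against 4.67 to 4.75 in MNNG_Low. Such a rise was not confined to these cell types. The mean of endothelial markers was 4.77 to 5.12 in MNNG_High, against 4.43 to 4.70 in MNNG_Low. That of lung epithelium markers was 5.67 to 5.91, against 5.56 to 5.65, in these bone tumors. Among them EPCAM (group mean 7.96 against 8.67) and NKX2-1 (6.15 against 6.4) were lower in MNNG_High, and the others higher. Red cell means overlapped (5.72 to 6.63 against 5.77 to 6.17). Interquartile ranges over all probe sets were narrower in MNNG_High (2.76 to 3.18) than in MNNG_Low (3.29 to 3.40). The array's probes are human, so cells of the host animals would register only by cross-hybridization. The part of other cells in the results for HSPB2, HSPB7 and HSPA12B was not tested, nor was that of the narrower signal range. Fewer cells of a type and less RNA per cell cannot be told apart in bulk samples.

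The MNNG calls depended on how the samples were modelled. With the tumor as a replicate block, 5 members rose and 22 fell, 47.4% of 57, while 52.9% of all genes were called. Without the lung arrays, 4 members rose and 16 fell, against 15.6% and 28.8% of all genes. HSPA9, the mitochondrial HSP70, was called in that fit and not with all arrays (-0.38 ± 0.11, adjusted p = 0.0147), as was HSPE1. With the date tag as a covariate, the comparison rested on the 4 High arrays against the array MNNG-1231 Low, and limma called 0 members and 0.0208% of all genes, with 6 members and 2169 genes at an unadjusted p under 0.05. The estimates kept their direction for all 12 called members, for example DNAJC27 at -0.62 and DNAJB6 at -0.56. Against 12 in all arrays, limma called 6 members without the array MNNG-1231 High, MNNG-1232 Low or MNNG-1235 Low, and 7 without MNNG-1233 High or MNNG-1233 Low. After a second quantile normalization, which moved the median of all genes to 0.01, 2 members were called, DNAJC27 (-0.69) and HSPB2 (0.76). High values lay below Low values of the same tumor in all 4 tumors for 26 of 57 members (45.6%), against 41.8% of all genes, and above them in all 4 for 5 members (8.77%), against 18.9% of all genes.

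**Figure D2:**
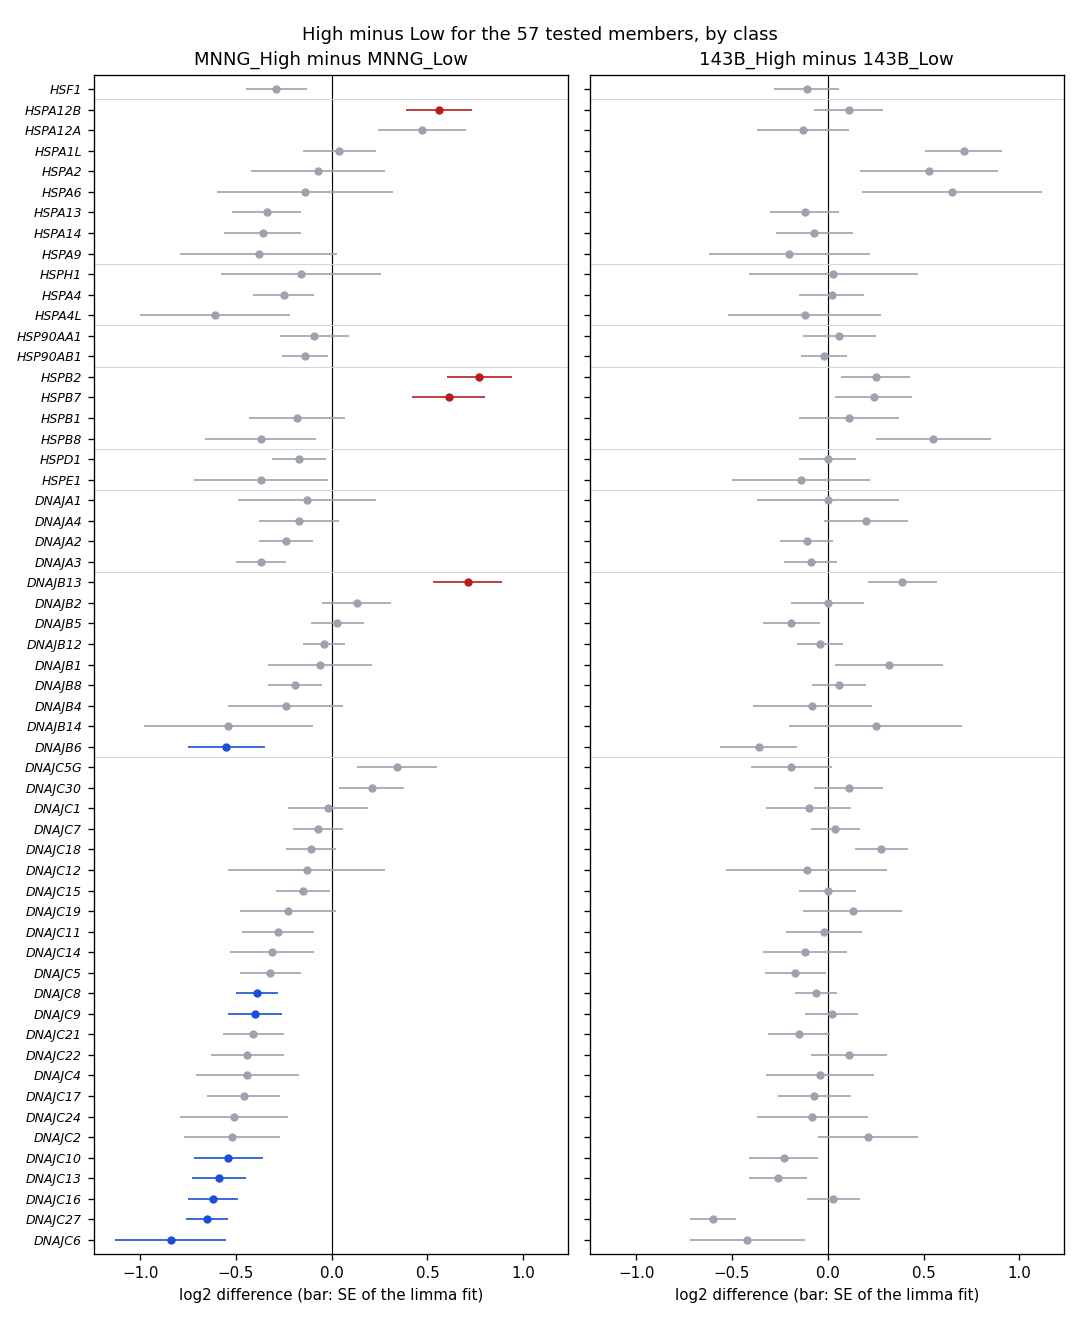
Log2 difference of High minus Low (x axes) with limma's standard error for the 57 tested members, grouped by class from HSF1 at the top to DNAJC at the bottom; MNNG is on the left and 143B on the right. Red points are higher and blue points lower at an adjusted p of 0.05: 4 and 8 in MNNG and 0 in 143B.

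In 143B tumors, 0 of 57 members were called by limma between 143B_High and 143B_Low, with 3 at an unadjusted p of 0.05, and 0.00694% of all genes were called higher and 0% lower. The same counts held without the lung arrays. With the tumor as a replicate block, limma called 0 members and 0.118% of all genes, with 9 members and 1595 genes at an unadjusted p under 0.05. DNAJC27 had 5.28, 5.36 and 5.16 in 143B_High, against 5.81, 5.89, 5.77, 5.78 and 6.06 in 143B_Low. The groups did not overlap, and the difference was -0.60 ± 0.12, with an unadjusted p of 8.56e-05 and an adjusted p of 0.247. HSPA1L, a testis-type HSP70, had 8.05, 7.89 and 8.38 in 143B_High, against 7.38, 7.61, 7.48, 7.67 and 6.83 in 143B_Low (0.71 ± 0.20, adjusted p = 0.577), also without overlap. HSPB8 stood at 0.55 ± 0.30 with overlapping groups. The difference between the lines' High minus Low effects, MNNG minus 143B, was called for 0 members, with 5 at an unadjusted p of 0.05, and for 0.00694% of genes higher and 0% lower, with or without the lung arrays. Its smallest p was that of DNAJC16 (-0.65 ± 0.19, adjusted p = 0.453). An effect in MNNG alone is therefore not shown.

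Between the lines the members differed strongly in a few genes. HSPB8, a small heat shock protein that works with BAG3 in selective autophagy, had 4.86, 5.04, 5.54, 4.84 and 5.40 in 143B_Low, against 9.28, 8.55, 9.81 and 8.12 in MNNG_Low. The groups lay far apart, with signals 13.9-fold lower in 143B_Low (-3.80 ± 0.28, adjusted p = 7.25e-09). In High cells it had 5.85, 5.48 and 5.72 in 143B_High, against 8.81, 8.18, 9.07 and 8.20 in MNNG_High (-2.88 ± 0.32, adjusted p = 1.85e-06). The mean in 143B_Low lay under the filter of 5.36, so the size of the first difference is uncertain. A second probe set of HSPB8 gave -1.55 for Low cells and -1.23 for High cells. HSPB1 averaged 10.53 ± 0.30 in 143B_Low and 11.04 ± 0.29 in MNNG_Low (n = 5 and 4; adjusted p = 0.127).

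HSF1 itself was lower in 143B. It had 7.71, 7.29, 7.69, 7.77 and 8.05 in 143B_Low, against 8.36, 8.35, 8.52 and 8.28 in MNNG_Low (-0.68 ± 0.15, adjusted p = 0.00234). In High cells it averaged 7.60 ± 0.05 in 143B_High and 8.09 ± 0.29 in MNNG_High (n = 3 and 4; -0.49 ± 0.17, adjusted p = 0.0348). Its dimmer probe set gave -0.45 in both comparisons. The call of HSF1 in Low cells was kept in all 19 alternatives, while that in High cells was lost in 8 of 17. HSPA1L was lower as well, at -1.36 ± 0.18 in 143B_Low and -0.68 ± 0.21 in 143B_High (adjusted p = 1.45e-05 and 0.0172), with a second probe set at -0.70 and -0.26. Its sequence is close to those of HSPA1A and HSPA1B, so how far its probe set is specific is uncertain. HSPA6 was -1.14 ± 0.43 in 143B_Low, where the groups did not overlap (adjusted p = 0.0555, and 0.00162 without the lung arrays). Of the 9 inducible members 0 were called in either line comparison, where 14.4% of all genes were higher and 14.5% lower in Low cells, and 21.4% and 14.7% in High cells. Their medians were -0.09 in Low and 0.25 in High cells. Without the lung arrays, HSPA6 and HSPB1 (-0.51 ± 0.19, adjusted p = 0.0398) were called lower in 143B_Low, and HSPD1 and HSPE1 higher in 143B_High. HSPA12A, a distant HSP70, was higher in 143B_Low (5.87 ± 0.26 against 4.81 ± 0.46 in MNNG_Low; 1.07 ± 0.22, adjusted p = 0.00104), but its other probe set stood at -0.22.

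**Figure D3:**
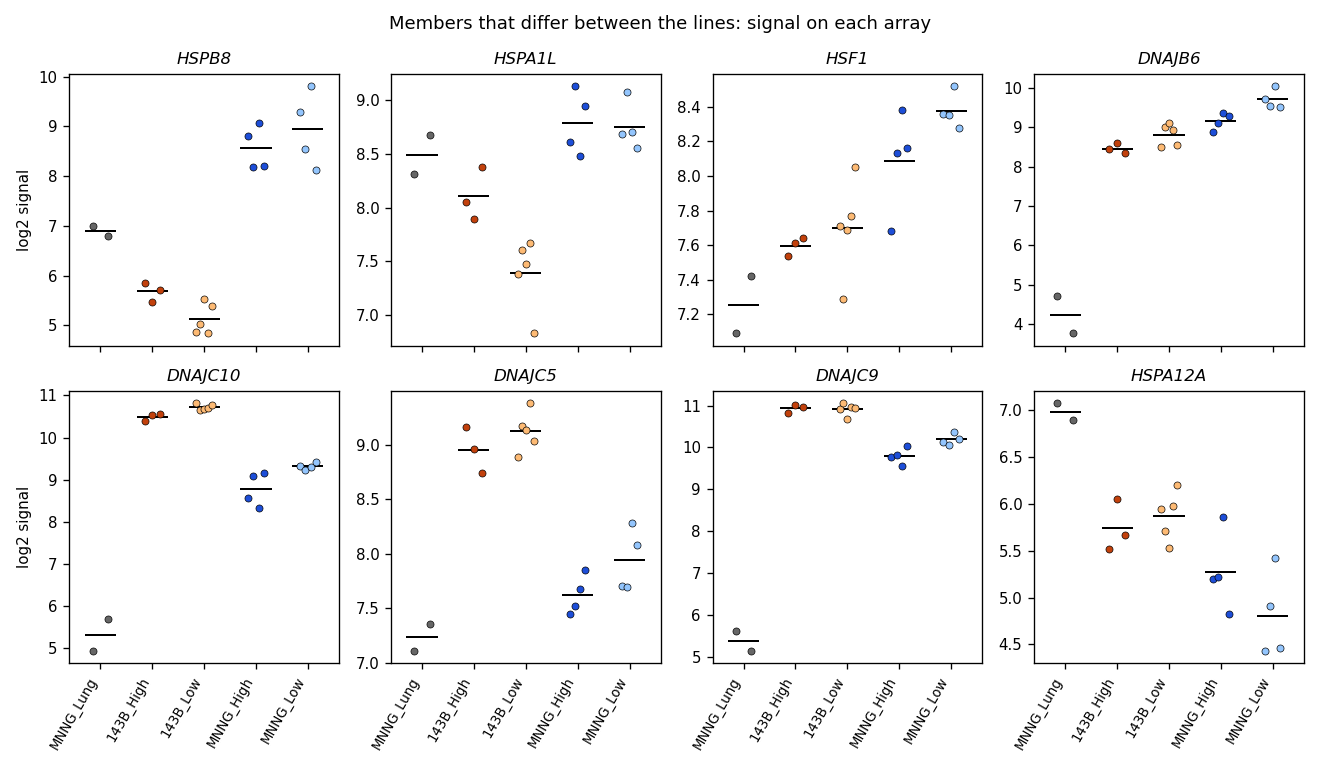
Log2 signal (y axes, each panel with its own range) of 8 members on every array by group; points are arrays and lines are group means. HSPB8, HSPA1L, HSF1 and DNAJB6 have lower means in both 143B groups than in either MNNG bone tumor group, and DNAJC10, DNAJC5 and DNAJC9 have every 143B array above every MNNG array.

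The DNAJ genes that differed most between the lines were higher in 143B, apart from DNAJB6 and DNAJB4. DNAJC10 had 10.81, 10.65, 10.67, 10.71 and 10.77 in 143B_Low, against 9.33, 9.24, 9.30 and 9.42 in MNNG_Low. It had 10.40, 10.53 and 10.55 in 143B_High, against 8.57, 9.08, 8.32 and 9.16 in MNNG_High, so that no 143B array reached down to an MNNG array. The differences were 1.40 ± 0.17 in Low and 1.71 ± 0.19 in High cells (adjusted p = 3.89e-06 and 2.38e-06). DNAJC5, the cysteine string protein of secretory vesicles, differed by 1.18 ± 0.15 and 1.33 ± 0.17, and DNAJC9 by 0.72 ± 0.13 and 1.14 ± 0.15. DNAJB6 fell by 0.89 ± 0.19 in 143B_Low and by 0.70 ± 0.21 in 143B_High (adjusted p = 0.00122 and 0.0164). DNAJB4, a J-domain protein close to DNAJB1, fell by 0.99 ± 0.28 in 143B_Low and was -0.83 ± 0.32 in 143B_High (adjusted p = 0.0537). DNAJC16 (-0.47 ± 0.13) and DNAJC27 (-0.37 ± 0.11) fell in 143B_Low as well.

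Over all members, 4 rose and 7 fell in 143B_Low against MNNG_Low, where 14.4% of all genes were higher and 14.5% lower. In 143B_High against MNNG_High, 11 rose and 6 fell, against 21.4% and 14.7% of all genes. All 11 that rose were DNAJC genes, of 24 tested, with a class median of 0.46 beside 0.01 for all genes. That balance depended on the scaling. After a second quantile normalization 3 members rose (DNAJC10, DNAJC5 and DNAJC9) and 6 fell, with the median of all genes at -0.11, and after median centring 14 rose and 4 fell, with that median at 0.09. Among the 11, DNAJC19, a mitochondrial import protein, differed by 0.85 ± 0.27 and DNAJC2, a ribosome-associated J-domain protein, by 0.79 ± 0.27, neither called after the second quantile normalization (adjusted p = 0.141 and 0.195). HSPB2 (-0.49 ± 0.19) and HSPA12B (-0.67 ± 0.18) fell in 143B_High, where the muscle marker ACTA1 (-0.81 ± 0.18) and the macrophage marker AIF1 (-1.28 ± 0.29) fell too, and the part of other cells was not tested. HSPA12B passed the filter on 0 of the 8 143B arrays and on MNNG_High and lung arrays alone, so its lower value in 143B_High was built into its passing. The call of HSPB2 was lost in 12 of 17 alternatives. Without the lung arrays 5 members rose and 11 fell in Low cells (18.1% and 19.1% of all genes), and 17 rose and 8 fell in High cells (26.7% and 20.5%). In that fit HSPD1 (0.32 ± 0.12) and HSPE1 (0.43 ± 0.14) were called higher in 143B_High (adjusted p = 0.0401 and 0.0206). With the lung arrays kept, the 17 members called in 143B_High against MNNG_High, 11 higher and 6 lower, became 8 without 143B-1253 High, 8 without pool 51&52 and 10 without pool 54&55.

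**Figure D4:**
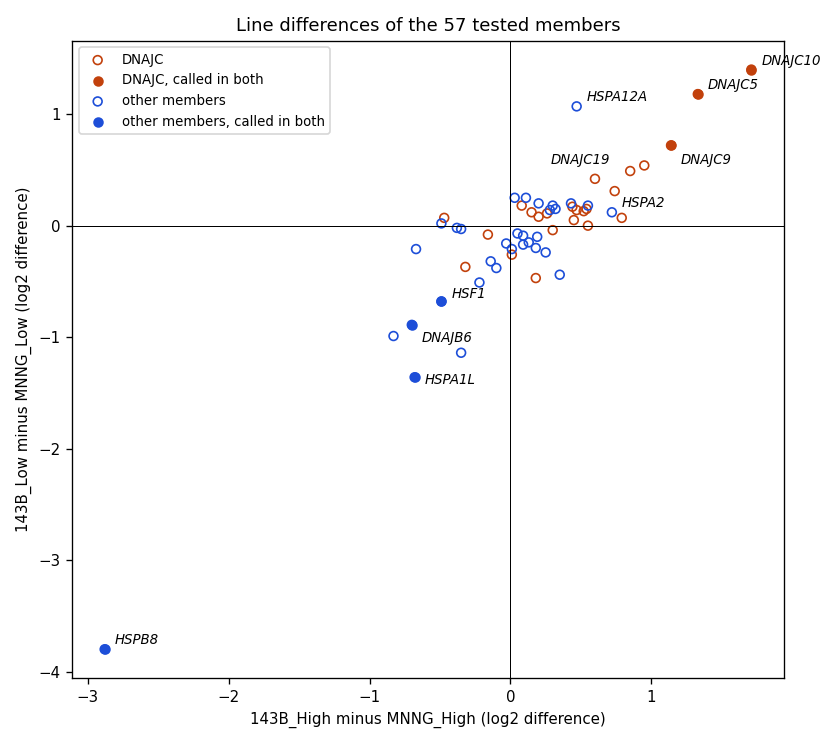
Log2 difference of 143B_High minus MNNG_High (x axis) against that of 143B_Low minus MNNG_Low (y axis) for the 57 tested members; orange points are DNAJC genes, blue points all others, and filled points are called in both. HSPB8 lies far to the lower left (-2.88, -3.80) and DNAJC10 at the upper right (1.71, 1.40).

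Partners outside the rule were called in the same comparisons, several lists at shares near those of all genes. Of 11 endoplasmic reticulum chaperones, 4 were higher in 143B_Low and 4 in 143B_High (36.4% each, against 14.4% and 21.4% of all genes), and 0 lower in either. Examples are the oxidoreductase PDIA4 (0.87 ± 0.14 in Low cells) and SDF2L1, which works with HSPA5 (1.17 ± 0.19 in High cells). Of 21 co-chaperones and exchange factors, 3 were higher (14.3%) and 1 lower (4.76%) in 143B_Low, and 6 higher (28.6%) and 1 lower in 143B_High, where 14.5% and 14.7% of all genes were lower. BAG2, an HSP70 exchange factor, differed by 0.59 ± 0.20 in 143B_Low and by 1.11 ± 0.22 in 143B_High. ST13, which stabilises the ADP state of HSP70, fell by 0.69 ± 0.10 and by 0.44 ± 0.11. Of 12 TRiC and prefoldin subunits, 2 were higher (16.7%) and 3 lower (25%) in 143B_Low, and 3 were higher (25%) and 0 lower in 143B_High, with CCT5 at 0.72 ± 0.10 and 0.82 ± 0.11. In MNNG_High against MNNG_Low the co-chaperones had 3 of 21 lower (14.3%; BAG2 at -0.76 ± 0.21), TRiC and prefoldin 2 of 12 (16.7%) and the mitochondrial list 3 of 8 (37.5%), with 0 higher in each, where 15.5% of all genes were lower and 10.6% higher.

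On the lung arrays most members were far lower, together with most genes of comparable brightness. Against MNNG_High, 10 of 57 members rose and 39 fell, where 34.8% of all genes were higher and 47.6% lower. Against MNNG_Low, 11 rose and 40 fell, where 35.1% of all genes were higher and 51.9% lower. The members' medians were -1.68 and -1.95, against -0.37 and -0.64 for all genes. All 9 inducible members fell in both comparisons. HSPH1 had 7.86 and 4.50 in MNNG_Lung, against 11.71 to 12.32 in MNNG_High and 11.97 to 12.28 in MNNG_Low (-5.82 ± 0.52 and -5.97 ± 0.52). HSPA9 had 7.72 and 4.38 in MNNG_Lung, against 11.32 to 11.86 in MNNG_High (-5.56 ± 0.50). The lung arrays differed from each other by over 3 on the log2 scale for both genes, and each value lay below every bone tumor array. DNAJB6 had 4.70 and 3.76 in MNNG_Lung, against 8.88 to 9.36 in MNNG_High (-4.94 ± 0.24, adjusted p = 1.97e-12), and DNAJA1 had 9.16 and 6.37 in MNNG_Lung, against 12.06 to 12.68 in MNNG_High (-4.62 ± 0.44). HSPE1 (-3.84 ± 0.43), DNAJB1 (-3.73 ± 0.34), HSPA4 (-3.12 ± 0.20), HSPB1 (-1.70 ± 0.31) and HSPD1 (-1.42 ± 0.18) fell too. In that order their values in MNNG_Lung were 9.05 and 6.3, 9.37 and 7.47, 7.88 and 6.96, 8.48 and 9.84, and 11.73 and 12.38. Standard errors and p-values of all lung comparisons pool the spread of every group in the fit. They do not measure the spread of the lung arrays alone, and can understate it where that pair lay far apart. After a second quantile normalization HSPB1 stood at -0.08 and HSPD1 at -0.25, neither called (adjusted p = 0.824 and 0.265), and without the lung array of tumor 1233 HSPB1 stood at -1.02. DNAJB4 (-4.54 ± 0.37) and HSPA13, an HSP70-like microsomal protein (-4.48 ± 0.21), fell to a like degree.

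Signal level went with the size of the lung difference. Genes of all kinds with a mean of 8 to 10 in MNNG_High had a median lung difference of -2.33 (3581 genes), and the 22 members in that range one of -2.37. At 10 and over the medians were -3.73 for 1606 genes and -3.12 for 13 members, between 6 and 8 they were 0.04 and -0.39 (15 members), and under 6 they were 0.94 and 0.77 (7 members). The level and the difference share the MNNG_High arrays. At like brightness the members' medians lay near those of all genes. HSP90AA1 had 12.39 and 11.19 in MNNG_Lung, against 13.66 to 14.11 in MNNG_High (-2.16 ± 0.22). That lay within the interquartile range of genes with a mean of 13.5 to 14 in MNNG_High (-3.93 to -0.57), and it was -0.88 after a second quantile normalization. The other probe sets of HSP90AA1 gave -5.36, -5.10 and -4.31. Beside this, the ACTB control probes and the narrow signal range set the lung arrays apart, while the GAPDH control probes did not. All 10 immediate early genes fell against MNNG_High, and red cell, endothelial and 4 of 6 macrophage markers rose. Of all genes 34.8% were higher and 47.6% lower. The immediate early genes had means of 8.83 to 13.14 in MNNG_High, levels at which genes of all kinds mostly fell. The marker lists were not set against genes of like brightness. Of 5 lung epithelium markers tested, 3 rose (SFTPC by 1.41 ± 0.15, SFTPB by 0.62 ± 0.16 and LAMP3 by 0.63 ± 0.24) and EPCAM fell by 3.02 ± 0.30. The mean of the 8 measured was 6.14 and 6.15 in MNNG_Lung, against 5.67 to 5.91 in MNNG_High, and SCGB1A1, a club cell gene too dim for testing, averaged 6.2 in MNNG_Lung and 4.21 in MNNG_High. The mean of 9 macrophage markers was 7.03 and 7.07 in MNNG_Lung, against 5.86 to 6.28 in MNNG_High. Here too, cells of the host animals would register on the human probes only by cross-hybridization. The part of RNA quality and of other cells in the lung differences was not tested.

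**Figure D5:**
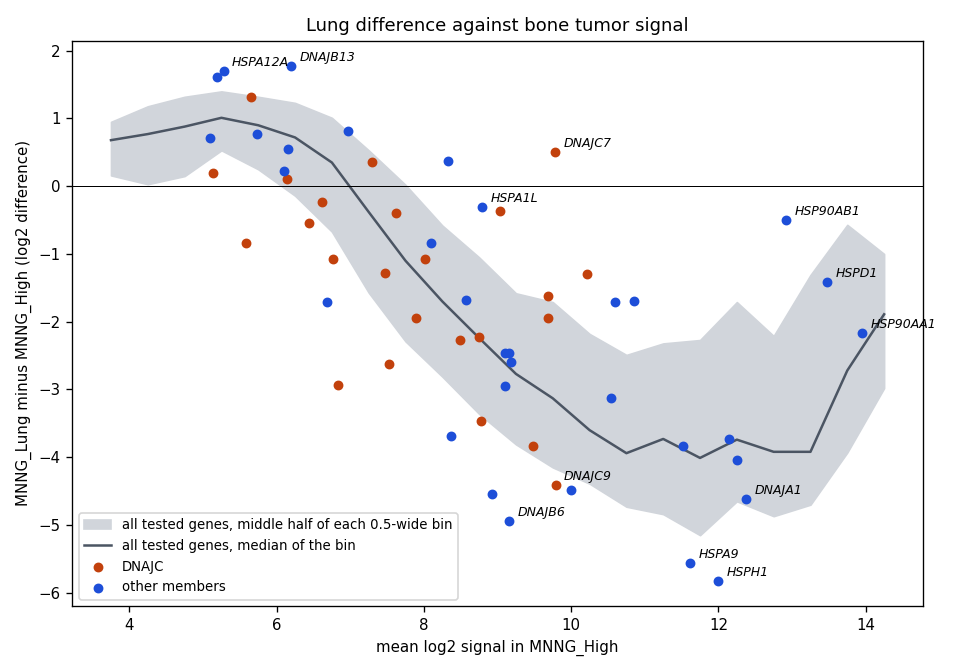
Log2 difference of MNNG_Lung minus MNNG_High (y axis) against the mean log2 signal in MNNG_High (x axis); points are the 57 tested members, the line is the median and the band the interquartile range of all tested genes in narrow bins of signal. Members follow the downward course of all genes, with HSPH1, HSPA9 and DNAJB6 below the band and DNAJC7 and HSP90AB1 above it.

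Some members departed from that course, while HSPB8, HSF1 and DNAJC11, also given here, lay within the interquartile range of genes of like brightness. DNAJC6 had 3.85 and 3.93 in MNNG_Lung, against 5.91 to 7.61 in MNNG_High (-2.94). Genes with a mean of 6.5 to 7 in MNNG_High, where DNAJC6 lay, had an interquartile range of -0.67 to 1.01. HSP90AB1 had 12.63 and 12.22 in MNNG_Lung, against 12.97, 12.99, 12.69 and 13.03 in MNNG_High (-0.50 ± 0.15), but 0.66 after a second quantile normalization. Its other probe sets gave -2.90 and -4.79. DNAJC7, a cochaperone of both HSP70 and HSP90, was higher at 10.48 and 10.07 in MNNG_Lung, against 9.55 to 10.01 in MNNG_High (0.50 ± 0.15, adjusted p = 0.00618), with another probe set at -0.34. HSPA1L was -0.30 ± 0.24, with overlapping groups and a second probe set at -1.42. The largest increases were those of DNAJB13 (1.77 ± 0.21), HSPA12A (1.70 ± 0.28), HSPB7 (1.61 ± 0.24) and DNAJC5G (1.32 ± 0.25), all dim in bone tumors. HSPB7 reached the filter on 2 MNNG_High and 2 lung arrays alone. DNAJB8, also called higher in lung, reached it on 1 MNNG_Low and 2 lung arrays. Neither would have passed without the lung arrays, so their higher signal in lung was built into their passing. HSPB3 and HSPB6, also muscle small heat shock genes, were too dim for testing and had 6.10 and 7.06, and 5.11 and 5.79, in MNNG_Lung. The mean of 9 muscle markers was 5.64 and 6.13 in MNNG_Lung, against 4.91 to 5.29 in MNNG_High. Among them ACTA1 was lower in lung (6.03 against 6.87) and the others higher. Genes of all kinds with a mean under 6 in MNNG_High had a median lung difference of 0.94. HSPB8 had 6.99 and 6.79 in MNNG_Lung, below the MNNG_High range (-1.68 ± 0.36), with its second probe set at -0.15. Probe sets of one gene disagreed in sign for several members: HSF1 fell by 0.84 ± 0.20 with its brighter probe set and stood at 0.97 with the other, and 5 probe sets of HSPD1 ran between -4.52 and 0.83. For DNAJC11 (-1.08 ± 0.23) and DNAJC4 (-1.07 ± 0.33, overlapping) other probe sets reached 2.09 and 1.37.

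Most partners outside the rule were lower on the lung arrays too, where 47.6% of all genes were lower than in MNNG_High. All 12 TRiC and prefoldin subunits were called lower, with CCT5 at -2.98 ± 0.13 and a median of -3.50, beside -3.73 for all genes with a mean of 10 and over in MNNG_High. So were 17 of 21 co-chaperones, BAG3 among them (-5.57 ± 0.33), with a list median of -2.15, and all 11 endoplasmic reticulum chaperones, CANX at -5.26 ± 0.29, with one of -1.58. Genes of all kinds had a median of -2.33 at a mean of 8 to 10 and of -3.73 at 10 and over. The mean level of each list in MNNG_High was 11.29 to 11.47, 9.12 to 9.44 and 9.81 to 10.48, in the order given. The endoplasmic reticulum list thus lay across the bound of 10. Of the 63 coding members, DNAJB7, DNAJC28, DNAJC5B, HSPB3, HSPB6 and HSPB9 did not pass the filter, with signals between 2.49 and 7.06. The 5 noncoding genes (DNAJC9-AS1, DNAJB8-AS1, DNAJC3-DT, DNAJC27-AS1 and HSPA2-AS1) did not pass either, with signals between 2.76 and 6.65.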

How the data were processed

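The authors deposited log2 signals per probe set, with RMA named in the submitters' processing notes, and checked the arrays with AffyQCReport, per the series' design text. RMA corrects background, quantile-normalizes and summarises probes, and can hide shifts that most genes share. The version and the set of arrays normalized together were not stated. The number of arrays limits the precision.

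Genes were named from the 41097 of 54675 probe sets annotated to 1 gene (1801 matched several, 11777 none), and 19734 of 19775 genes were found in RefSeq (GRCh38.p14). Each gene was taken at its own probe set of highest mean over 18 arrays. Groups came from the titles. A limma 3.58.1 fit (R 4.3.3) with 5 group means gave 7 comparisons, with Benjamini-Hochberg adjustment over 14418 genes and a threshold of 0.05. It was tested on simulated data. A gene passing in 1 comparison and not in another is not shown to differ. Alternatives were normalization, filters, probe set choice, array weights, covariates, the tumor block and leaving out arrays.

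Tumor numbers in the titles pair High with Low cells of 1 tumor. Their deviations from group means correlated over genes at 0.299 to 0.579 in MNNG and 0.542 in 143B-1253, at -0.192 and 0.529 for pool 51&52, and at 0.243 and 0.063 for pool 54&55.

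Always named were HSF1, HSPA1A, HSPA1B, HSPA1L, HSPA8, HSPA4, HSPH1, HSP90AA1, HSP90AB1, HSPB1, DNAJA1, DNAJB1, HSPD1, HSPE1 and HSPA9. The 6 largest called increases and decreases without overlap per comparison were added, with up to 3 members per class and 3 genes per outside list of smallest p. Other genes were chosen after their values were seen. Members and lists were chosen with earlier results of these data known.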

Additional observations from a re-analysis of the deposited data

Results flagged for a closer look

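In groups of 4 or 5 arrays, 4 of 96 checks of a named member found 1 array apart from the others of its group, where chance gives about 1 in 20. HSP90AB1 stood at 12.69 on the array MNNG-1233 High, against 12.97 to 13.03 on the other MNNG_High arrays. HSP90AA1 stood at 13.95 on MNNG-1231 Low, against 14.06 to 14.08 on the other MNNG_Low arrays. DNAJC2 stood at 9.80 on MNNG-1232 Low, against 10.05 to 10.08. DNAJB2 stood at 7.32 on 143B-1255 Low, against 6.98 to 7.07 on the other 143B_Low arrays.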

How the results depend on the processing

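In MNNG_High against MNNG_Low the count of 12 called members was 2 after a second quantile normalization, 7 with only the groups compared, 20 without the lung arrays, 0 with the date tag as covariate and 6 with a covariate for the GAPDH control probes (3' minus 5'). That covariate did not overlap between MNNG_High (0.50 to 0.75) and MNNG_Low (0.34 to 0.41), so its part and that of the groups cannot be fully told apart. Leaving out 1 array at a time gave 6 to 17. With the tumor as a replicate block it was 27, and the block left 143B_High against 143B_Low and the difference between the lines at 0. Array weights gave 2 members in 143B and 1 for that difference, against 0. For 143B_Low against MNNG_Low the count of 11 was 19 with array weights and 20 with only the groups compared. For 143B_High against MNNG_High the count of 17 was 9 after a second quantile normalization, 27 with array weights, and 8 to 19 when 1 array was left out. The lung counts of 49 and 51 stayed within 1.5 times.

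Of 230 repeats of single calls in MNNG_High against MNNG_Low, 157 kept the call, 72 kept only the direction and 1 changed sign, DNAJC13 at 0 as a mean over probe sets. Of 282 repeats in 143B_High against MNNG_High, 203 kept the call, and of 203 in the Low cells 200 did, with 0 changes of sign in either. Signs changed in 8 of 766 repeats against MNNG_High in lung. As means over probe sets DNAJC11 gave 0.51, DNAJC4 0.42 and HSF1 0.07, without probe sets shared between transcripts DNAJC11 gave 2.09, DNAJC4 1.37 and DNAJC8 0.22, and after a second quantile normalization DNAJC1 gave 0.22 and HSP90AB1 0.66. In 8 of 797 repeats against MNNG_Low, DNAJC11 gave 0.26 and DNAJC4 0.57 as means, 1.89 and 1.90 without shared probe sets, DNAJC1 0.46, DNAJC5 0.23 and HSP90AB1 0.61 after a second quantile normalization, and DNAJB12 -0.05 after median centring. The causes were not tested. The second quantile normalization moved the median of all genes to 0.01 in MNNG_High against MNNG_Low and to -0.03 in lung against MNNG_High, where the members' median was then -0.88.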
